A study of Mus musculus with 4 samples.

Results

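The genes of elastic fibres and microfibrils were followed in mouse mesenchymal progenitor cells that expressed H3WT or H3R26C. The 10 genes, of 32285 counted, were Eln, Fbn1, Mfap2, Mfap4, Mfap5, Fbln2, Fbln5, Efemp1, Efemp2 and Lox. They were chosen by name, with their levels, shares of cells and co-expression in these 4 libraries already known, so the same values are given here as a description. All 10 reached a mean of 1 CPM (count per 1000000 UMIs) in every comparison.

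Each of the 4 libraries came from C3H 10T1/2, a mouse line of mesenchymal progenitors (MPC) that can take several lineages in culture. The cells carried a lentiviral human histone H3 transgene with C-terminal HA and FLAG tags under an EF1 promoter, either as H3WT or as the arginine-to-cysteine mutant H3R26C. The mutant was thus added to the cells' own histone H3, and the transgene could not be checked in these mouse gene counts. Each line received 5-Azacitidine (5-Aza), a DNA methyltransferase inhibitor that makes these cells differentiate, or its vehicle DMSO, and 1 droplet library was made per condition. The cells were collected weeks after a brief 5-Aza exposure. The collection day of the DMSO cells is not given in the sources used here, so treatment and time in culture cannot be told apart. With 1 library per condition there was no test between conditions, and all intervals are 95% intervals of counting error, which leave out the spread between cultures.

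Elastic fibres give skin, vessels and lung their recoil. Their core is cross-linked elastin, laid on a scaffold of fibrillin microfibrils, and fibroblasts and smooth muscle cells secrete both. Fibulins bind elastin, fibrillin or lysyl oxidase and help to place elastin on the scaffold, and lysyl oxidase starts the cross-links.

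Barcodes with at least 5000 unique molecular identifiers (UMIs, each marking 1 captured RNA molecule), at least 1500 genes and at most 20% mitochondrial UMIs were taken as cells. In H3WT, 3710 DMSO cells and 5993 5-Aza cells were left, and in H3R26C 4727 DMSO cells and 7619 5-Aza cells. Their medians ran from 13123 to 22420 UMIs per cell, and any pair of libraries shared 24 to 58 cell barcodes. Of 10 mesenchymal markers, 9 reached 1 CPM in every library. The summed level of 12 skeletal muscle markers was 23.2 CPM in H3WT and 16.3 in H3R26C with DMSO. With 5-Aza it was 2242 in H3WT and 2689 in H3R26C. That of 8 proliferation markers ran from 204 in H3WT with DMSO to 685 in H3R26C with 5-Aza. Levels below are CPM summed over the cells of a library. How many cells show a gene depends on depth, so shares of cells were taken after thinning each cell at random to 5000 UMIs. Cells with or without Spp1 or Ly6a were likewise classed on thinned UMIs, so those without may hold some in the full counts. Where 4 values stand in a row, they are in the order H3WT DMSO, H3WT 5-Aza, H3R26C DMSO and H3R26C 5-Aza.

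5-Aza lowers methylation of cytosines in CG pairs, so promoter sequences are shown for Efemp1 and Mfap2, which were at least 2-fold higher with 5-Aza in both lines. That of Fbln5 is shown as well, which was lower with H3R26C and not higher with 5-Aza in either line. Any link of the sequences to the levels was not tested. RefSeq promoters (GRCm38.p6), from 250 bases before to 50 bases after the start, were held for 6 of the 10 genes. The sequences run 5′ to 3′ with CG pairs in capitals. A CG pair reads the same on both strands.
Efemp1 promoter, chr11:28852955-28853254, plus strand: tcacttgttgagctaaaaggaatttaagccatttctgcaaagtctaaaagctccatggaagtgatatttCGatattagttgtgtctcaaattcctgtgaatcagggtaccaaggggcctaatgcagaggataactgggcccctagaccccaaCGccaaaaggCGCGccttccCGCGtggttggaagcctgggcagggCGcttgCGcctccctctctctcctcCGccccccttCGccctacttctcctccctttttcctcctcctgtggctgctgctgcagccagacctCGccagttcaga
Mfap2 promoter, chr4:141010431-141010730, plus strand: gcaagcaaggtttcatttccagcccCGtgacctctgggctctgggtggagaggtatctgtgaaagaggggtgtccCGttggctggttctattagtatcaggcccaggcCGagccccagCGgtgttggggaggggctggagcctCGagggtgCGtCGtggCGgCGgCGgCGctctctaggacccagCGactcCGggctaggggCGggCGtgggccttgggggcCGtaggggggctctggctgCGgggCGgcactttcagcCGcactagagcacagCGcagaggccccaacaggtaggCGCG
Fbln5 promoter, chr12:101819070-101819369, minus strand: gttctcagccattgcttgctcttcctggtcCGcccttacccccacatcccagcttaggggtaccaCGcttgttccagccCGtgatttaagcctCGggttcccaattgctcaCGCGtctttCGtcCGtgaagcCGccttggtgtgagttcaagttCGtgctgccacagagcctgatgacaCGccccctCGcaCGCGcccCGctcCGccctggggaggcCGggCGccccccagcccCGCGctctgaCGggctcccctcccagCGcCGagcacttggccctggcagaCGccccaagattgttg

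The printed promoters held 11 CG pairs for Efemp1, 22 for Mfap2 and 24 for Fbln5. The median of 32851 promoters of this length was 7, with quartiles of 3 and 20. Another start of Mfap2 had 6 pairs, and its window (chr4:141010174-141010473) is the one that holds the gene start at 141010418. A second start of Fbln5 had 8 (chr12:101818435-101818734), and neither Fbln5 window holds the gene start, at 101819055 on the minus strand. Which start was in use was not tested. The promoters of the other 3 genes held 14 pairs for Fbn1, 10 for Fbln2, and 16, 35 and 41 for the 3 starts of Efemp2. Methylation itself was not analysed here.

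Eln encodes tropoelastin, the soluble form of elastin (chromosome 5, 134702593 to 134747323, minus strand, GRCm38). Its level was 441 CPM in H3WT with DMSO, 554 in H3WT with 5-Aza, 126 in H3R26C with DMSO and 66.0 in H3R26C with 5-Aza. Both H3R26C libraries lay below both H3WT libraries, and the 5-Aza library was the higher of the pair in H3WT and the lower in H3R26C. H3R26C was 3.48-fold lower than H3WT with DMSO (log2 ratio -1.80, interval -1.83 to -1.77) and 8.28-fold lower with 5-Aza (-3.05, interval -3.09 to -3.01). These and the following ratios are of CPM with 1 added. A UMI of Eln was found in 56.0%, 49.6%, 26.3% and 15.6% of the thinned cells, with binomial intervals of 54.4% to 57.6% for the first and 14.8% to 16.4% for the last. Among the cells that held one, the mean was 3.87, 5.91, 2.42 and 2.29 UMIs, so H3R26C had both fewer Eln-positive cells and fewer UMIs in each.

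**Figure D1:**
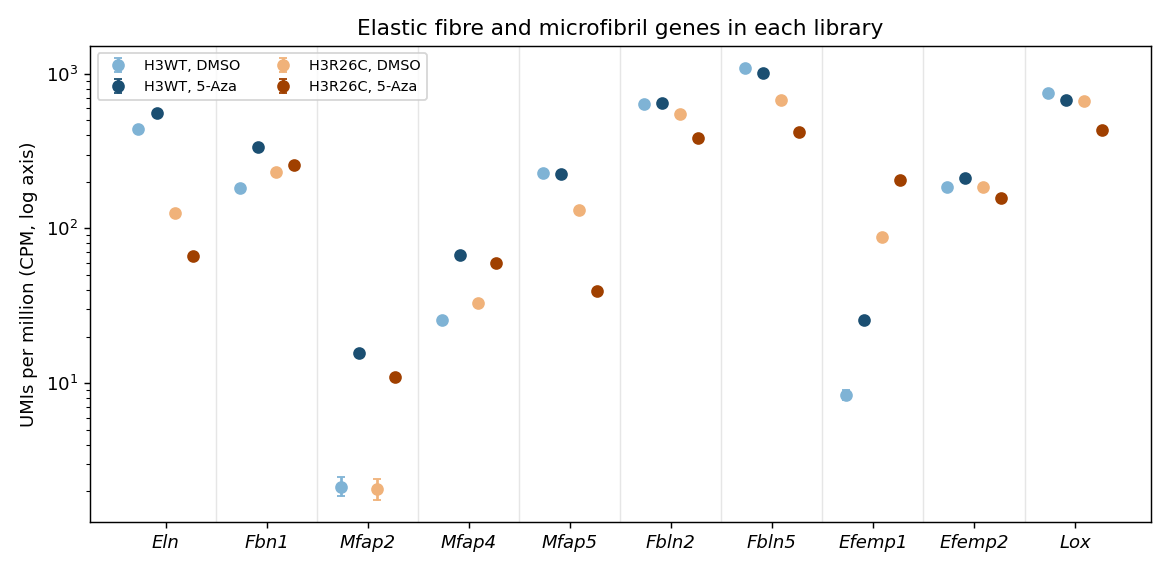
Level of each gene (x axis) in CPM on a log axis (y axis) in the 4 libraries, with counting intervals. Levels are to be compared within a gene. Eln is lowest in H3R26C with 5-Aza (66.0 CPM) and Efemp1 highest there (206 CPM).

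Eln UMIs were unevenly spread over cells. The 10% of cells with the most Eln held 54.5%, 68.0%, 72.5% and 84.3% of all thinned Eln UMIs. In H3WT with 5-Aza, 8.26% of cells held 10 or more thinned UMIs and 50.4% held none, and 1 cell reached 130. H3WT with DMSO had 4.72% of cells at 10 or more but fewer cells at 0 (44.0%). In the H3R26C libraries 0.952% and 0.459% of cells reached 10. The variance of the thinned count over its mean was 8.82, 19.4, 5.98 and 7.68, where counting alone would give about 1. It was the highest of the 10 genes in all libraries but H3R26C with DMSO, where Lox had 6.84.

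Among the microfibril genes, Fbn1 was highest in H3WT with 5-Aza and Mfap5 was lowest in H3R26C with 5-Aza. Fbn1 encodes fibrillin, the backbone of the microfibril (chromosome 2, 125300594 to 125507993). It stood at 182 CPM in H3WT with DMSO, 338 in H3WT with 5-Aza, 231 in H3R26C with DMSO and 255 in H3R26C with 5-Aza. With DMSO the mutant was the higher line (log2 ratio 0.34) and with 5-Aza the lower one (-0.40), though not among cells without a UMI of Spp1 (0.22). The thinned shares were 53.5%, 66.6%, 57.4% and 52.8%. By share, H3R26C with 5-Aza and H3WT with DMSO had overlapping intervals (51.7% to 53.9% and 51.9% to 55.1%), although their CPM differed.

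Mfap5 (MAGP2), a small fibrillin-binding glycoprotein gene (chromosome 6, 122505845 to 122529290), was measured at 227, 226, 132 and 39.6 CPM. Over all cells the H3WT libraries were alike, and H3R26C with 5-Aza was far below the other 3. With 5-Aza, H3R26C was 5.58-fold lower than H3WT (log2 ratio -2.48, interval -2.53 to -2.44), against -0.78 with DMSO. The thinned share followed, at 41.7%, 41.6%, 26.7% and 10.4% of cells, while the mean in positive cells moved less (2.54, 2.68, 2.43 and 2.02 UMIs).

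Mfap2 (MAGP1), the other member of that pair (chromosome 4, 141010418 to 141015984), stood at 2.15, 15.7, 2.06 and 10.9 CPM. It was higher with 5-Aza in both lines, 5.29-fold in H3WT (log2 ratio 2.40, interval 2.24 to 2.56) and 3.90-fold in H3R26C (1.96, interval 1.80 to 2.12). With a pseudocount of 10 CPM the H3R26C ratio was 0.79. Few cells held Mfap2 even so, with thinned shares of 0.863%, 5.72%, 0.973% and 4.34%. In DMSO cells these rest on 32 and 46 cells, and with DMSO the 2 lines could not be separated at this depth (log2 ratio -0.04, interval -0.25 to 0.16).

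Mfap4, a fibrinogen-domain glycoprotein of elastic fibres (chromosome 11, 61485431 to 61488900), had 25.7, 67.0, 33.0 and 59.6 CPM. Its 5-Aza libraries lay above its DMSO libraries, 2.55-fold in H3WT and 1.78-fold in H3R26C. Its thinned shares were 9.60%, 16.1%, 11.1% and 14.4%, a narrower range than that of the levels. The H3WT ratio was 1.35 on the log2 scale over all cells and 0.67 among cells of 10000 to 20000 UMIs, below 2-fold. The H3R26C ratio was 0.83 and stayed between 0.69 and 0.97 under 9 other choices of scaling, cells and pseudocount, that band among them. It differed more between the Spp1 and Ly6a classes given below. Mfap4 was lower in the 25% of cells with the most UMIs than in the 25% with the fewest. The log2 ratios were -1.83, -1.24, -1.59 and -1.37. The DMSO cells were the deeper ones, and the part of depth was not tested. Between the lines Mfap4 gave log2 ratios of 0.35 with DMSO and -0.17 with 5-Aza. Among cells of 10000 to 20000 UMIs these were -0.01 and 0.04, so no direction is drawn from them.

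Of the fibulins, Efemp1 differed most between the lines. Efemp1 encodes fibulin-3, an extracellular glycoprotein that also binds TIMP3 (chromosome 11, 28853204 to 28926743). Its level was 8.36 CPM in H3WT with DMSO, 25.6 in H3WT with 5-Aza, 87.9 in H3R26C with DMSO and 206 in H3R26C with 5-Aza. Each H3R26C library lay above both H3WT libraries, and each 5-Aza library above its DMSO library. H3R26C was 9.50-fold higher with DMSO (log2 ratio 3.25, interval 3.15 to 3.35) and 7.80-fold higher with 5-Aza (2.96, interval 2.90 to 3.02). The log2 ratio of 5-Aza over DMSO was 1.51 in H3WT and 1.22 in H3R26C, and the first fell below 2-fold (0.96) with a pseudocount of 10 CPM. In thinned cells it was found in 3.61%, 9.11%, 28.5% and 49.9%, so both H3R26C shares lay above both H3WT shares.

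Fbln5, whose protein tethers elastin to integrins and is needed for elastic fibres in mice (chromosome 12, 101746565 to 101819055), ran the other way at 1087, 1013, 671 and 419 CPM. With 5-Aza the mutant was 2.42-fold lower (log2 ratio -1.27, interval -1.29 to -1.26), and with DMSO it was 1.62-fold lower. Among cells without a UMI of Spp1 the 5-Aza ratio was -0.75, short of 2-fold, and among cells without a UMI of Ly6a it was -2.08. The thinned share was 92.5%, 89.0%, 80.7% and 63.1%. Fbln2, which binds fibrillin and elastin (chromosome 6, 91212455 to 91272540), gave 636, 642, 552 and 385 CPM and 89.7%, 85.8%, 86.0% and 75.0% of cells. Efemp2, which encodes fibulin-4, a partner of lysyl oxidase (chromosome 19, 5473954 to 5482517), varied least, at 184, 211, 185 and 157 CPM. With DMSO its log2 ratio between the lines was 0.01.

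Lox, the enzyme that oxidises lysines of elastin and collagen (chromosome 18, 52516067 to 52529867), was at 744, 673, 665 and 431 CPM and in 85.0%, 79.2%, 76.7% and 66.3% of thinned cells. H3R26C with 5-Aza was the lowest library by both measures. With 5-Aza the mutant had a log2 ratio of -0.64, which was -0.03 among cells without a UMI of Spp1 and -1.36 among cells without one of Ly6a. With DMSO it was -0.16, and 0.25 among cells of 10000 to 20000 UMIs.

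**Figure D2:**
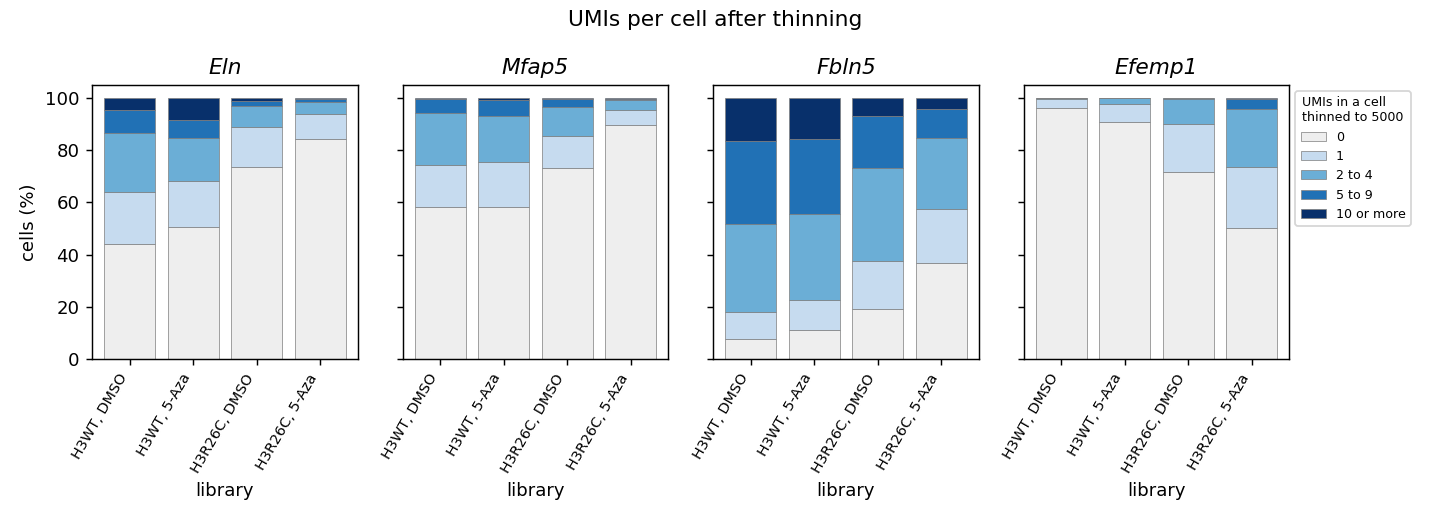
Percent of cells (y axis) by the number of UMIs left after thinning to 5000, for 4 genes in the 4 libraries (x axis). Cells with no Eln UMI go from 44.0% in H3WT with DMSO to 84.4% in H3R26C with 5-Aza, and cells with no Efemp1 UMI from 96.4% to 50.1%.

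The genes were then counted past 2-fold in each comparison, beside every gene that averaged 1 CPM or more. With DMSO, 1 of 10 was at least 2-fold higher in H3R26C (Efemp1, against 1.82% of 12052 genes) and 1 was lower (Eln, against 0.589%). With 5-Aza, 1 was higher (Efemp1, against 4.79% of 12669 genes) and 3 were lower (Eln, Mfap5 and Fbln5, against 2.64%). In H3WT, 3 genes were higher with 5-Aza than with DMSO (Mfap2, Mfap4 and Efemp1, against 4.26% of 12306 genes) and 0 lower (against 0.276%). In H3R26C, 2 were higher with 5-Aza (Mfap2 and Efemp1, against 8.04% of 12551 genes) and 1 lower (Mfap5, against 3.09%). Each gene is 10% of the list, so a count of 1 cannot be read against a background of a few percent.

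The median log2 ratio of the members was -0.10 for H3R26C against H3WT with DMSO and -0.56 with 5-Aza, beside 0.03 and -0.03 over all genes. It was 0.26 for 5-Aza in H3WT and -0.38 in H3R26C, beside 0.04 and -0.03. The 4 comparisons share libraries with each other, so they are no independent views of the same genes. Over all cells, all 10 members had a lower 5-Aza ratio in H3R26C than in H3WT, where 61.9% of 12482 genes did. Among cells with a Spp1 UMI this did not hold for Lox (0.15 in H3R26C and 0.14 in H3WT). Eln was close in them (0.56 and 0.60), as was Fbln5 (0.17 and 0.29), and Mfap5 stayed apart (-0.05 and 0.90). Fbn1 and Efemp1 did too. Between the lines Fbn1 gave 0.36 with DMSO and -0.33 with 5-Aza there, and Efemp1 3.44 and 2.81. Among cells without a Spp1 UMI it did not hold for Efemp1. Its H3R26C over H3WT ratio was 3.11 with DMSO and 3.38 with 5-Aza there. With a pseudocount of 10 CPM Efemp1 was also an exception (1.14 in H3R26C and 0.96 in H3WT). Among cells of 10000 to 20000 UMIs Mfap4 was another, with -0.01 between the lines with DMSO and 0.04 with 5-Aza. The difference over all cells ran from -0.29 for Efemp1 to -1.71 for Mfap5 (interval -1.76 to -1.65), with -1.25 for Eln. Over all cells 7 of the 10 lay below -0.48, the 10% quantile of all genes. The genes were chosen with these values known, and the count was not made within the Spp1 classes. The difference was not tested.

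**Figure D3:**
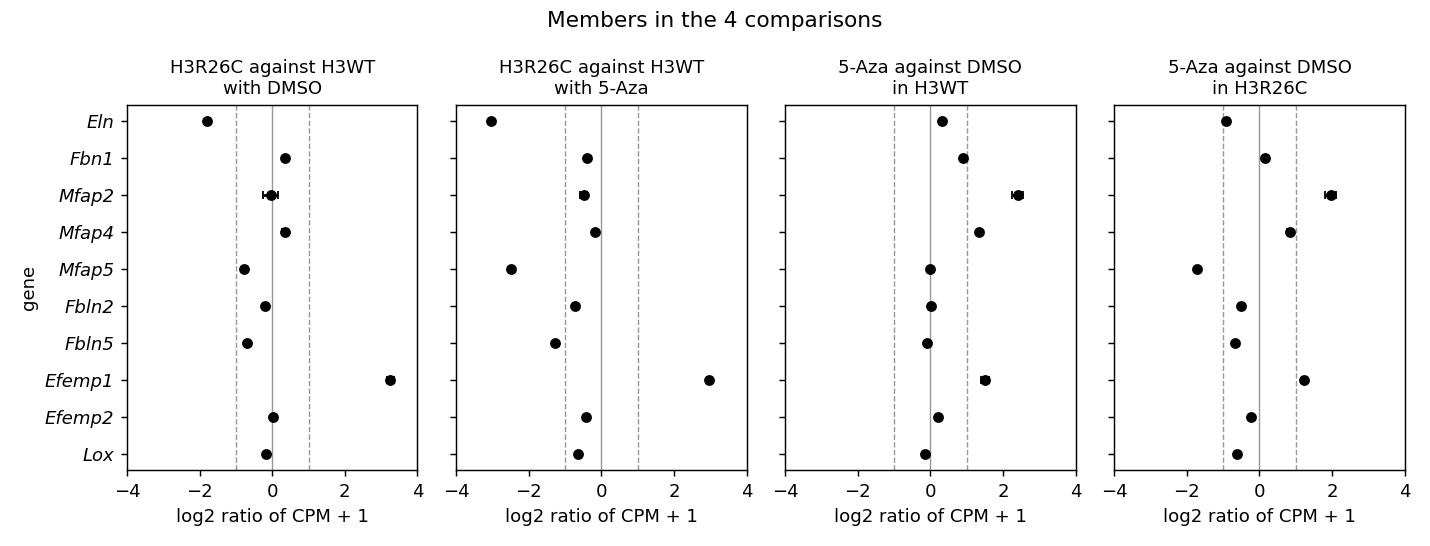
Log2 ratio of CPM + 1 (x axis) of each gene (y axis) in the 4 comparisons, with counting intervals, a solid line at 0 and dashed lines at 2-fold. Eln and Mfap5 lie furthest left with H3R26C and 5-Aza (-3.05 and -2.48), and Efemp1 lies to the right in all 4 panels.

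Levels of the same genes differed between cells of 1 library as well. Cells were split by Ly6a, which encodes the progenitor surface marker Sca-1, into those at or above the upper and at or below the lower quartile of thinned UMIs. The high and low classes held 1113 and 1711, 1686 and 1737, 1376 and 1836, and 2090 and 2498 cells. In the first 3 libraries the low class was the cells without a thinned Ly6a UMI. In H3R26C with 5-Aza only 946 cells were without one, so its ratios compare unlike classes with the other libraries. Mfap5 was higher in the Ly6a-high cells in every library, by a log2 ratio of 1.66, 2.05, 2.06 and 2.68. Efemp1 was too, by 1.10, 1.45, 0.81 and 1.45. Eln was lower in them by log2 ratios of -0.94, -1.20 and -0.71 in the first 3 libraries and was level in H3R26C with 5-Aza (-0.02). Mfap4 was lower in 3 libraries (-2.41, -2.80 and -1.98) but higher in H3R26C with 5-Aza (1.19). Between the cells of that library with and without a Ly6a UMI, Mfap4 stood at 63.1 and 36.3 CPM. In its Ly6a split 9 genes were above 0 and 1 below, where 54.3% of all genes were below 0. Fbln5 was at 1.10 there, against -0.33, 0.07 and -0.10 in the others. In these splits the 10% and 90% quantiles of all genes lay within -0.66 to 0.48 in every library. The same rule was applied to summed Acta2 and Tagln, smooth muscle markers. Its classes held 1246 and 2464, 1671 and 3207, 1690 and 3037, and 2112 and 3992 cells. Of the 40 ratios 15 were above 0 and 25 below, where 49.2%, 55.8%, 54.4% and 68.4% of all genes were below. Eln gave 0.30, 1.05, -0.19 and 1.03, and Lox 0.18, 0.64, -0.37 and 0.52. Mfap4 gave 0.73, 1.49, 0.14 and -0.24, and Efemp1 -0.47, -1.29, 0.20 and -0.76.

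Spp1, the osteopontin gene used in the study as an early lineage marker, gave another split by the same rule. The high and low classes held 883 and 2827, 1617 and 2943, 1357 and 3370, and 1920 and 1955 cells. In the DMSO libraries they were the cells with and without a thinned Spp1 UMI, so the ratios compare unlike classes between libraries. Mfap5 was lower in the Spp1-high cells in every library, by log2 ratios of -1.95, -1.92, -2.46 and -3.06. Eln was also lower in each, by -0.91, -1.33, -1.94 and -1.37, while Efemp1 gave 0.19, 0.34, 0.52 and -0.19. The 10% and 90% quantiles of all genes lay within -0.64 to 0.49 in every library. Cells with a thinned Spp1 UMI made up 23.8%, 50.9%, 28.7% and 90.8% of the libraries, and cells with a thinned Ly6a UMI 53.9%, 71.0%, 61.2% and 87.6%.

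The lines and treatments were therefore also compared among cells with and without a Spp1 UMI, a split chosen after the data were seen. The Mfap5 ratio for 5-Aza in H3R26C was -1.72 over all cells, -0.47 in the cells without Spp1 (181 CPM with DMSO, 131 with 5-Aza) and -0.05 in those with it (32.0 and 30.8 CPM). In H3WT the Mfap5 ratio was -0.01 over all cells and 0.90 in those with Spp1 (73.3 CPM with DMSO, 138 with 5-Aza). In the H3WT cells without Spp1 its level was 286 CPM with DMSO and 330 with 5-Aza. Mfap4 in cells with Spp1 went from 8.05 to 60.6 CPM in H3WT (2.77) and from 9.12 to 57.9 in H3R26C (2.54). In those without, it went from 32.4 to 74.5 CPM in H3WT (1.18) and from 44.6 to 77.3 in H3R26C. No member was 2-fold lower with 5-Aza in H3R26C within either Spp1 class, although Mfap5 was over all cells and within both Ly6a classes. Eln went from 167 to 93.7 CPM in the cells without Spp1 and from 42.7 to 63.3 in those with it, log2 ratios of -0.82 and 0.56. The lower Eln in H3R26C against H3WT was present in both Spp1 classes, with log2 ratios of -1.60 and -2.63 with DMSO and -2.94 and -2.67 with 5-Aza. The higher Efemp1 was as well, with 3.11 and 3.44 with DMSO and 3.38 and 2.81 with 5-Aza. Mfap5 with 5-Aza gave -1.33 without Spp1 and -2.13 with it, and Fbln5 gave -0.75 and -1.18, so that the count of lower genes was 2 without Spp1 and 3 with it. The share of all genes within these classes is not given, so the counts have no background. Of the H3R26C cells with 5-Aza, 703 held no thinned Spp1 UMI. Efemp1 for 5-Aza in H3R26C was 1.66 without Spp1 and 0.87 with it, and it was 0.34 in cells without a Ly6a UMI and 1.16 in those with one. In the same comparison Mfap4 was -0.64 in cells without a Ly6a UMI and 1.63 in those with one. Mfap5 was -2.40 in the cells without one (59.5 CPM with DMSO, 10.5 with 5-Aza). In the cells with one it was at 172 CPM with DMSO and 43.9 with 5-Aza.

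**Figure D4:**
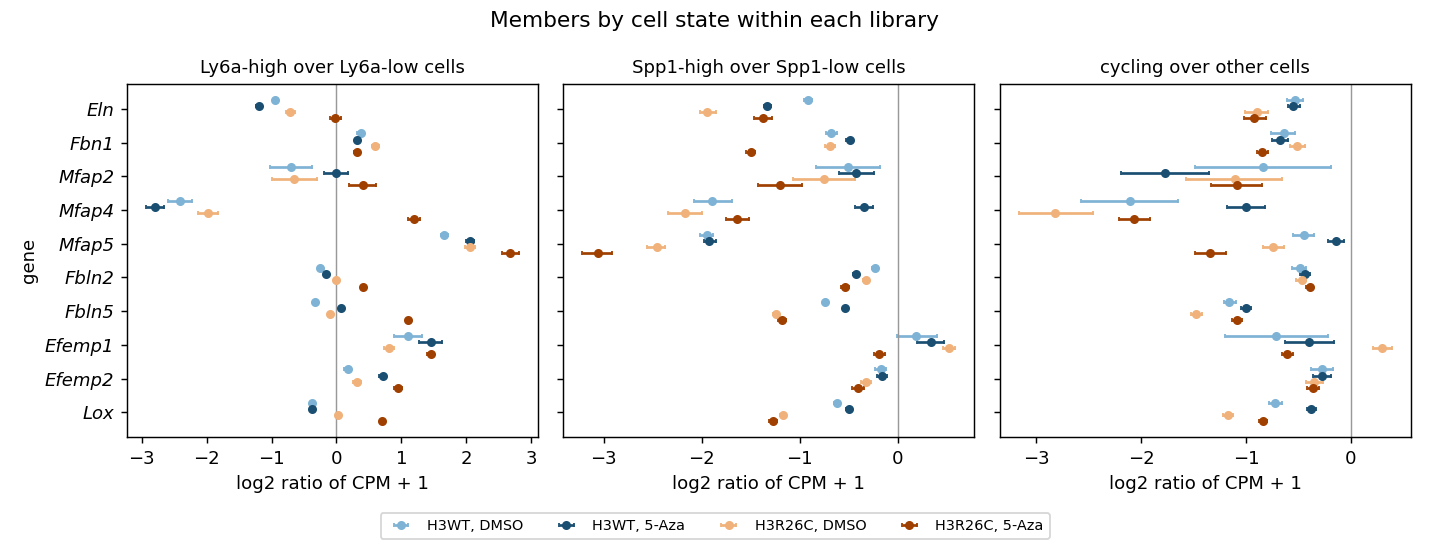
Log2 ratio of CPM + 1 (x axis) of each gene (y axis) between cell states of the same library, with counting intervals. Mfap5 lies to the right for Ly6a and to the left for Spp1 in all 4 libraries, and Mfap4 is on the left for Ly6a in 3 libraries and on the right in H3R26C with 5-Aza.

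In cells with at least 3 of 8 proliferation markers (136, 369, 353 and 1055 cells), 39 of the 40 ratios to the other cells were below 0, beside 51.1%, 53.3%, 56.2% and 57.3% of all genes. Fbln5 gave -1.48 in H3R26C with DMSO and Mfap4 -2.82 there, the lowest value of all. The 1 value above 0 was Efemp1 in H3R26C with DMSO (0.30). The cycling cells held more UMIs, with a median of 36432 against 22202 in H3WT with DMSO. In cells with at least 6 of 12 muscle markers, 331 in H3WT and 412 in H3R26C with 5-Aza and 0 with DMSO, all 20 ratios were below 0, beside 60.8% and 66.8% of all genes, whose medians were -0.13 and -0.21. With a looser muscle gate (1667 and 2289 cells) 8 of the 20 were above 0 and 12 below, beside 55.9% and 54.2% of all genes below. The direction thus depends on the gate, and the looser counts lay near the background. In the first, stricter gate the thinned share with Eln was 38.1% against 50.3% in H3WT, and 8.25% against 16.0% in H3R26C, at medians of 11807 against 13174 and 13884 against 13100 UMIs. For Efemp1 it was 4.23% against 9.40% and 30.3% against 51.0%. The gate is a range of marker counts and not a cell type. The part of free RNA and mixed droplets in any of the shares was not tested. Under 50 cells per library passed the adipocyte markers, too few for values.

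Across the cells of a library the genes were only loosely tied. Over the 45 pairs the median Pearson r of log2-scaled thinned counts was 0.065, 0.094, 0.072 and 0.089. Cells of 1 library share its preparation and their depth was fixed, and r is small in sparse counts, so it is given as a description with no p. The closest pair was Fbln5 and Lox, with r of 0.44, 0.40, 0.49 and 0.42. Eln followed Fbln5 (0.40, 0.38, 0.38 and 0.26) and Lox (0.36, 0.41, 0.30 and 0.27). These 3 genes, the elastin, its tether and its cross-linker, made the 3 highest pairs by mean r.

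Efemp1 stood apart from them. Its r with Eln was -0.07, -0.09, -0.15 and -0.08, and the pair was found in the same cell 0.692, 0.761, 0.627 and 0.880 times as often as the product of their shares. In H3R26C with DMSO, 17.9% of cells with an Eln UMI also had Efemp1, against 32.3% of cells without Eln. In H3R26C with 5-Aza, 43.9% and 51.0% did. Cells with Efemp1 and no Eln made up 2.21%, 5.67%, 23.8% and 43.1% of the libraries, and cells with Eln and no Efemp1 54.6%, 46.2%, 21.6% and 8.74%.

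**Figure D5:**
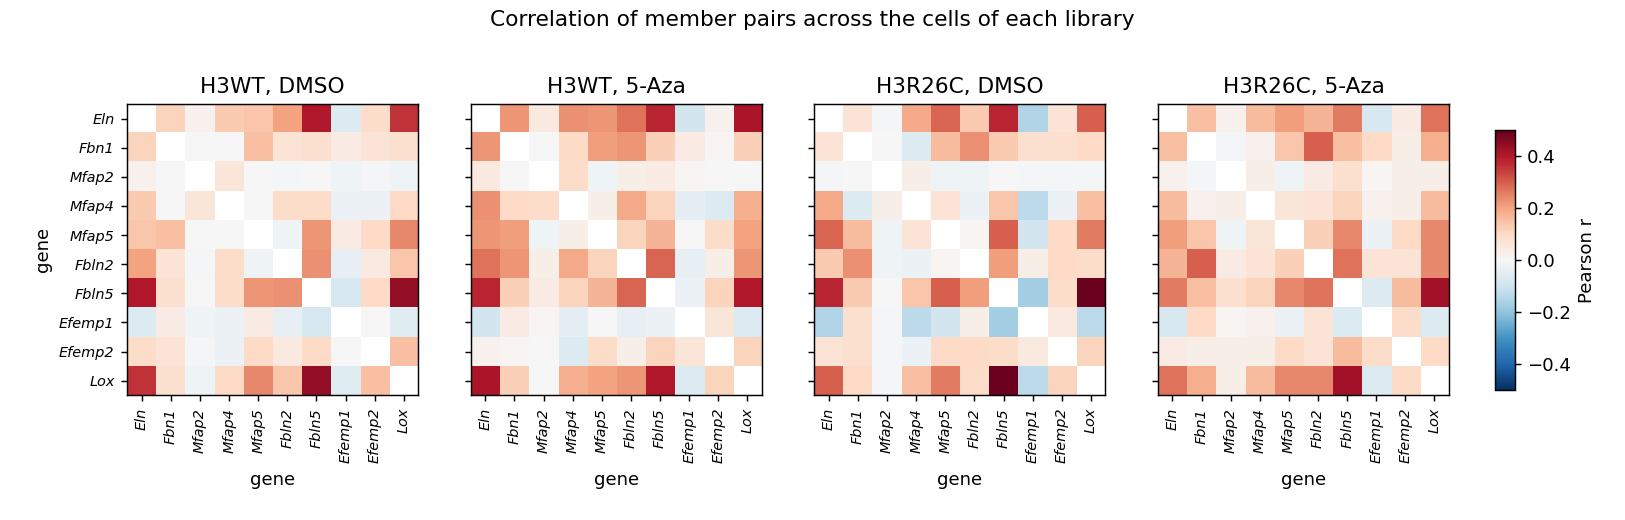
Pearson r (colour) of each pair of genes (both axes) across the cells of each library, with the diagonal left blank. Fbln5 and Lox are the closest pair in all but 1 library, with a mean r of 0.44, and the row of Efemp1 is near or below 0.

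Genes at 50 CPM or more in at least 1 library were ranked by their mean r with each member. Nearest to Eln were Fbln5 (0.35) and Lox, then Postn (0.30), Sparc (0.28) and Col3a1 (0.26). Mfap5 was closest to Pcolce2 (0.39), Clec3b (0.36) and Colec10 (0.34), and its closest member, Lox, came at rank 26 of 3754 genes. Fbn1 and Fbln2 both led with Col3a1 (0.32 each). For Efemp1 the nearest were Ly6a (0.15), Ecm1 and Sned1 (0.12 each), and its closest member, Fbn1, came at rank 48.

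Other genes of the pathway were taken from 9 lists of 56 genes in all, of which 45 to 49 reached 1 CPM. With DMSO, 3 of 45 were at least 2-fold higher in H3R26C (6.67%, against 1.82% of all genes) and 0 lower (against 0.589%). With 5-Aza, 4 of 49 were higher (8.16%, against 4.79%) and 5 lower (10.2%, against 2.64%). For 5-Aza in H3WT, 3 of 48 were higher (6.25%, against 4.26%) and 2 lower (4.17%, against 0.276%). In H3R26C, 4 of 48 were higher, a share of 8.33% close to the 8.04% of all genes, and 4 were lower (8.33%, against 3.09%). Fbln1, another fibulin, was higher in H3R26C with DMSO (10.4 against 2.05 CPM, log2 ratio 1.90) and with 5-Aza (16.1 against 4.13 CPM, 1.74). Tnxb, a tenascin that binds collagen, was at 8.36 CPM in H3R26C with 5-Aza against 46.1 in H3WT with 5-Aza and 46.6 in H3R26C with DMSO (log2 ratios -2.33 and -2.35). Fbn2, the fibrillin of early tissues, was lower in H3R26C with 5-Aza (28.2 against 67.4 CPM, -1.23).

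Among proteases that can cut elastin, Mmp9 was higher in H3R26C with DMSO (17.6 against 3.83 CPM, log2 ratio 1.94). With 5-Aza it was lower in both lines, at 3.90 CPM in H3R26C (-1.92) and 0.996 CPM in H3WT (-1.28). Ctsk, the cathepsin K gene, was at 0.506 CPM in H3WT with DMSO and 22.6 with 5-Aza (3.97). In H3R26C it was at 0.916 and 9.28 CPM (2.42). Adamts17, of a family found on microfibrils, was lower with 5-Aza in both lines, by log2 ratios of -1.22 and -2.44. The proteoglycan genes Vcan (628 against 304 CPM with H3R26C and DMSO, 1.04) and Dcn (1627 against 874 CPM with 5-Aza in H3WT, 0.90) complete the genes named by rule. The lysyl oxidase Loxl1, which works on elastin, was at 578, 592, 540 and 402 CPM. With 5-Aza its log2 ratio for H3R26C against H3WT was -0.56.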

How the data were processed

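Single-cell RNA sequencing was analysed for 4 libraries, 1 for each of H3WT and H3R26C with DMSO or 5-Aza, grouped from the labels. Per the labels and file headers, the authors ran Cell Ranger 6 (6.1.0 in the headers) on the mm10 (GRCm38) reference and deposited whole-number UMI counts per gene and barcode without normalization or their own cell filter. That filter was applied here. Counts were summed per library, scaled to CPM and compared as log2((CPM + 1)/(CPM + 1)), with exact Poisson intervals for CPM, exact binomial intervals for shares and no test, since cells are not replicates. Genes that averaged 1 CPM or more were measured and those at 2-fold were counted. Correlations used log2 of 1 plus the counts thinned to 5000 UMIs. Members, lists, gates and alternatives were chosen with earlier results of these data known. All 10 members are described. Over the other pathway lists, the 3 genes of largest log2 ratio in size per comparison are named. Only those that reached 10 CPM in 1 of the libraries were ranked. Loxl1, Mmp2, Mmp14 and Ctsl were added after their values were seen. Gene positions came from GENCODE M21. Scripts were tested on simulated data and used Python 3.11.15, numpy 2.4.6, scipy 1.17.1 and pandas 2.3.3. No column was unmapped and no doublets were removed. Other data types of the study are not analysed here.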

Additional observations from a re-analysis of the deposited data

Results flagged for a closer look

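4 genes were flagged for ratios of opposite direction under the same contrast. The share of all genes that change direction is not given, so the count has no background. Changes of sign from a ratio of 0.01 were not flagged. They were Fbln2 for 5-Aza over DMSO (0.01 in H3WT, -0.52 in H3R26C) and Efemp2 for H3R26C over H3WT (0.01 with DMSO, -0.42 with 5-Aza). No difference was tested, since each condition has 1 library. The log2 ratio of Eln for 5-Aza over DMSO was 0.33 in H3WT and -0.93 in H3R26C. That of Efemp2 was 0.20 in H3WT and -0.24 in H3R26C. For H3R26C over H3WT, Fbn1 had 0.34 with DMSO and -0.40 with 5-Aza, and Mfap4 had 0.35 with DMSO and -0.17 with 5-Aza. These directions did not hold in all cells. The Mfap4 ratios were -0.01 with DMSO and 0.04 with 5-Aza among cells of 10000 to 20000 UMIs. With 5-Aza, Mfap4 gave 0.05 in cells that passed no marker gate, 0.48 in cells with a Ly6a UMI and -1.74 in cells without one. The Fbn1 ratio with 5-Aza was 0.22 in cells without a Spp1 UMI. The Eln ratio in H3R26C was 0.56 in cells with a Spp1 UMI. The Efemp2 ratio was -0.13 in H3WT and -0.85 in H3R26C in cells without a Ly6a UMI, and 0.00 in H3R26C in cells without a Spp1 UMI.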

How the results depend on the processing

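No paired analysis was possible because the labels give no replicate numbers and hold a single library of each kind. At a 1.5-fold threshold the lower members numbered 3 for H3R26C with DMSO, 5 for H3R26C with 5-Aza and 4 for 5-Aza in H3R26C, against 1, 3 and 1 at 2-fold. Of the higher ratios with 5-Aza, Fbn1 in H3WT (1.85-fold) and Mfap4 in H3R26C (1.78-fold) also passed 1.5-fold. With a pseudocount of 10 CPM or a minimum mean of 10 CPM, 1 member was higher with 5-Aza in H3R26C, against 2. The H3WT count fell as well, since Efemp1 gave 0.96 with that pseudocount and Mfap2 (2.15 and 15.7 CPM) missed that minimum mean. In cells with Spp1, an alternative added after the data were seen like all Spp1 and Ly6a splits, 3 members were lower for H3R26C with DMSO. Both in cells with and in cells without Spp1, 0 were lower with 5-Aza in H3R26C. In cells without Ly6a, 6 were lower for H3R26C with 5-Aza, 4 were lower with 5-Aza in H3R26C and 1 was higher there. The share of all genes at 1.5-fold or within these cell classes is not given, so these counts have no background to be read against. Without thinning the median correlation of pairs was 0.127, 0.142, 0.134 and 0.137, and in cells that passed no gate it was 0.060 in H3WT with 5-Aza. With a looser muscle gate, 55.9% of all genes in H3WT and 54.2% in H3R26C were below 0. Of the members, 8 of the 20 ratios to other cells were above 0. In H3R26C with 5-Aza they were 0.03 for Eln, 0.12 for Mfap4 and 0.13 for Fbn1, against -1.12, -1.11 and -0.98. In H3WT with 5-Aza they were 0.28 for Eln, 0.31 for Mfap4, 0.17 for Mfap2, 0.09 for Fbn1 and 0.02 for Fbln2, against -0.50, -0.06, -0.70, -0.57 and -0.65. The causes were not tested. Under 9 other choices of scaling, cells and pseudocount the Eln ratio for H3R26C stayed between -1.84 and -1.68 with DMSO and between -3.07 and -2.89 with 5-Aza, and that of Efemp1 between 2.41 and 3.44 and between 2.60 and 3.06. A count of 0 cells limits a share to 3 cells of the library, and values within a library's counting error were not separable at this depth.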
